A study of Mus musculus with 4 samples.

Results

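Apoe and Apoc1 are neighbouring apolipoprotein genes on the minus strand of mouse chromosome 7, and their polyadenylated 3' ends were mapped at single-base resolution in RNA of mixed cell lines. The genes were selected on measured values: the rule is a pair of mm9 windows, set with read counts of these libraries in view, at chr7:20274500-20278500 for Apoc1 and chr7:20281000-20285500 for Apoe. Their levels and their ratio between the capture oligos are therefore given as a description. The windows held 158 cleavage positions, 46 in Apoc1 and 112 in Apoe, of 315205 positions in the whole series. Of these, 16 in Apoc1 and 60 in Apoe rest on 1 read over both libraries.

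Apolipoprotein E is the ligand through which lipoprotein remnants bind members of the LDL receptor family, and macrophages, astrocytes and hepatocytes are known to secrete it. Apolipoprotein C-I is a small exchangeable protein of the same lipoprotein particles, known to inhibit cholesteryl ester transfer protein and to hinder remnant uptake. Both genes lie in a compact cluster with Apoc2, whose protein activates lipoprotein lipase, and Apoc4. The 3' end of such an mRNA is made by a cut downstream of a poly(A) signal, most often AAUAAA, after which poly(A) polymerase adds the tail. CstF64 is the subunit of the cleavage stimulation factor that binds U- or GU-rich RNA beyond the cut.

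In 3'READS, poly(A)-containing RNA fragments are captured on beads and sequenced to find where the tail begins. A commercial mix of 11 mouse cell lines gave 2 such libraries. The CU5T45 library was captured with an oligo of 5 U and 45 T, with stringent washes and release by RNase H digestion. The oligo(dT)10-25 library used the shorter T stretches of ordinary poly(A) selection beads on the same mix. The cell lines of the mix are not named in the sources used here, and in such bulk RNA fewer cells of a type and less RNA per cell cannot be told apart. CLIP-seq, which sequences RNA crosslinked to a protein by UV light, was done for CstF64 in C2C12, a line of mouse myoblasts kept proliferating, from 3 dishes of cells, with complexes of 85 to 150 kDa, in 2 replicates.

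The CU5T45 library held 6738355 reads and the oligo(dT)10-25 library 3482826 reads. With 1 library per oligo no difference between them has a replicate check, no p-value is given, and all intervals are 95% intervals that cover counting error only. The CLIP replicates held 1101047 and 1352122 distinct alignments and differed by less than sampling noise, at a chi-square per degree of freedom of 0.226 in 33743 bins of 10 kb, so they were counted as 1 sample.

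The bases at the 3' end of the mature mRNA are shown because nearly all reads of both genes fell there. The sequences below run 5' to 3' along the mRNA strand, from the GENCODE vM21 transcripts of the GRCm38 build, and the capitals mark the poly(A) signal AATAAA and the bases at the most used position of Apoc1 and the 3 leading positions of Apoe.
Apoc1 3' end: cagaccAATAAAaaacgtgtagaaggcaaA
Apoe 3' end: cttAATAAAgattctccgagcAcAttctgA

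The most used Apoc1 position lay 18 nt from the last base of AATAAA. The 3 leading Apoe positions lay 13, 15 and 21 nt from it. AATAAA on the transcript strand is found in the last 30 bases of 20860 of 58793 protein-coding mouse transcripts (35.5%), and the weaker variant ATTAAA in 9.74%.

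The files use mm9 and the annotation GRCm38, and no coordinate was converted: the positions were set on the transcripts by distance within each build, taking the most used Apoc1 position as the annotated end of the principal Apoc1 transcript. The annotated ends of the principal Apoe and Apoc1 transcripts are 6791 nt apart in GRCm38, and the most used positions are 6789 nt apart in mm9. Set this way, 0 of 147 positions were followed by an A, and 84 of 148 (56.8%) lay on an A. The base after the most used Apoc1 position lies beyond the transcript, so that position is not among the 147. A makes up 23.9% of the bases of the transcripts. The same bases shifted by other small steps gave 23.8% to 48.0% of positions on an A. An end inside a run of A would then be recorded at its last A, and the bases of such a run cannot be told apart as places of the cut. Such recording by itself raises the share on an A, so 23.9% is not the share that random cuts would give. The placement assumes the same local sequence in both builds.

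Apoc1 was among the most abundant ends of the mix and was lower in the CU5T45 library. Its window held 63453 reads in the CU5T45 library, against 51079 in the oligo(dT)10-25 library. In counts per 1000000 reads of the library (CPM) that is 9417 (9344 to 9490) with CU5T45 and 14666 (14539 to 14794) with oligo(dT)10-25. The ratio of shares, the CU5T45 share of reads over the oligo(dT)10-25 share, was 0.642 (0.635 to 0.650), which is 1.56-fold lower (1.54 to 1.58). The gene ranked 4 among 56112 nuclear clusters of cleavage positions by reads of both libraries, 4 in CU5T45 and 3 in oligo(dT)10-25.

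Apoe was nearly level between the oligos. Its window held 15863 reads in the CU5T45 library, against 7940 in the oligo(dT)10-25 library. That is 2354 CPM (2318 to 2391) with CU5T45 and 2280 CPM (2230 to 2330) with oligo(dT)10-25, a ratio of 1.03 (1.01 to 1.06). Its side of 1 depends on the scale: divided by the median ratio of nuclear clusters, 1.08 (log2 0.11), the Apoe ratio was 0.956 and that of Apoc1 0.594. Among nuclear clusters Apoe ranked 41 by reads of both libraries. The plus strand of both windows held 0 reads in either library, and the 2499 nt between the windows held 0.

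Within a library the comparison of the genes needs no total. The CU5T45 library had 4.00 Apoc1 reads per Apoe read, against 6.43 in the oligo(dT)10-25 library, a ratio of 0.622 (0.604 to 0.640). The genes together took 1.18% of all reads with CU5T45 and 1.69% with oligo(dT)10-25.

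Such shifts were common in these libraries. Of 16684 clusters with 30 or more reads, 23.5% had an interval wholly below 1, as the Apoc1 window did, and 27.5% had one wholly above 1, as the Apoe window did. A ratio of 2-fold or more either way with an interval excluding 1 was found at 25.2%, and neither gene reached it. Apoc1 stood among the 15.8% of 114 nuclear clusters with 10000 or more reads whose ratio was at or below its own. For Apoe 32.5% lay at or below. The median of the 114 was 1.26, with a range of 0.0322 to 5.59, so both genes lay under it and neither was extreme.

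**Figure D1:**
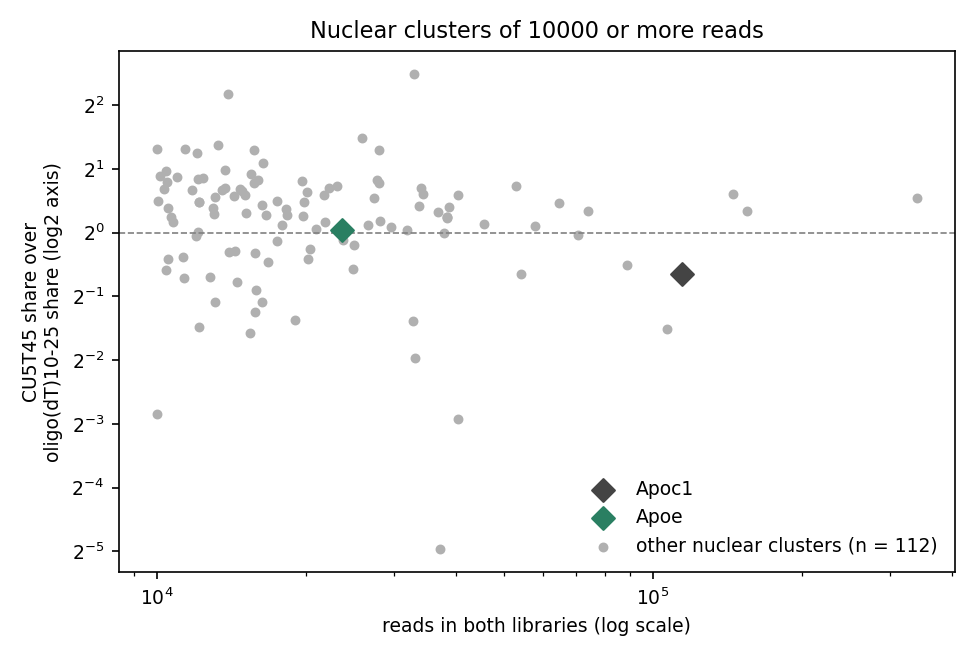
The 114 nuclear clusters of 10000 or more reads are plotted by reads in both libraries (horizontal, log scale) and by CU5T45 share over oligo(dT)10-25 share (vertical, log2 axis), with Apoc1 and Apoe as diamonds and the other 112 clusters as grey points. Apoc1, at a cluster ratio of 0.642, sits below the dashed line of equal shares and Apoe, at 1.03, on it.

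Nearly all Apoc1 ends were recorded at 1 position, the last of 3 A at the end of the annotated transcript. It may hold cuts at any base of that run. The base after it lies beyond the transcript and was not seen, so whether the run closes there was not tested. The position chr7:20274829 took 62802 reads in the CU5T45 library, against 50749 in the oligo(dT)10-25 library. It made up 98.974% (98.893 to 99.051) of the gene's reads with CU5T45 and 99.354% (99.281 to 99.422) with oligo(dT)10-25. Within its cluster of 29 positions this position ranked 6 of the 114 abundant clusters for the share held by 1 position, in each library. The median of those clusters was 77.5% with CU5T45 and 79.7% with oligo(dT)10-25.

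The difference between the oligos was found at that position and not in the sum of the other positions. At 20274829 the ratio was 0.640 (0.632 to 0.647), at 9320 CPM with CU5T45 and 14571 CPM with oligo(dT)10-25. All other Apoc1 positions together had 651 reads with CU5T45 and 330 with oligo(dT)10-25, a ratio of 1.02 (0.892 to 1.17), and this interval lies wholly above that of the leading base. The positions a few bases to either side did not move alike. Those 3, 1, 4 and 5 nt downstream had ratios of 1.08, 1.20, 1.45 and 1.76, all with intervals that include 1. The position 5 nt upstream, at 20274834, had 31 reads in the CU5T45 library, against 67 in the oligo(dT)10-25 library, and was 4.18-fold lower (2.69 to 6.62) with CU5T45. The next base upstream, with 26 reads in the CU5T45 library and 22 in the oligo(dT)10-25 library, had a ratio of 0.611 (0.333 to 1.13).

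Apoe ends were spread over 3 leading bases within 8 nt. The most used, chr7:20281618, lies 2 nt downstream of the annotated end by distance and took 10946 reads with CU5T45 and 5535 with oligo(dT)10-25. That was 69.0% (68.3 to 69.7) of the gene with CU5T45 and 69.7% (68.7 to 70.7) with oligo(dT)10-25, and the intervals overlap. Among the 114 abundant clusters its share of the cluster ranked 69 with CU5T45 and 65 with oligo(dT)10-25, so the share held by 1 position was lower than in Apoc1. The leading Apoe positions each lie on a single A and not on a later A of a run. Ends may therefore be recorded more finely there than in Apoc1, and the part this plays in the contrast was not tested.

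The second Apoe base, 20281620, is the annotated end itself and had 3728 reads with CU5T45 and 1728 with oligo(dT)10-25. The third, 20281612, lies 8 nt downstream of it and had 769 reads with CU5T45 and 516 with oligo(dT)10-25. All 3 together held 97.4% of the gene with CU5T45 and 98.0% with oligo(dT)10-25.

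The ratio differed among these 3 Apoe bases. It was 1.12 (1.05 to 1.18) at the annotated end, 1.02 (0.990 to 1.06) at 2 nt downstream and 0.770 (0.688 to 0.863) at 8 nt downstream, and neither of the first intervals overlaps that of the third base, though they overlap each other. Over these 3 bases the value fell with distance from the end. The next most used positions lie between 2 and 8 nt downstream: 20281617, 3 nt downstream, had 111 reads with CU5T45 and 55 with oligo(dT)10-25, a ratio of 1.04 (0.748 to 1.47), and 20281615, 5 nt downstream, had 45 with CU5T45 and 20 with oligo(dT)10-25, a ratio of 1.16 (0.673 to 2.08). Both intervals include the ratios of all 3 leading bases, so these positions cannot show whether the fall was steady. A separate group of 4 positions 28 to 33 nt downstream of the end, chr7:20281587-20281592, had 57 reads with CU5T45 and 15 with oligo(dT)10-25, a ratio of 1.96 (1.10 to 3.74). That interval lies wholly above the one at 8 nt, so the fall did not continue to this group. The strongest position of the group, 20281592, had 39 reads with CU5T45 and 7 with oligo(dT)10-25. This group made up 0.359% of the gene with CU5T45 and 0.189% with oligo(dT)10-25.

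**Figure D2:**
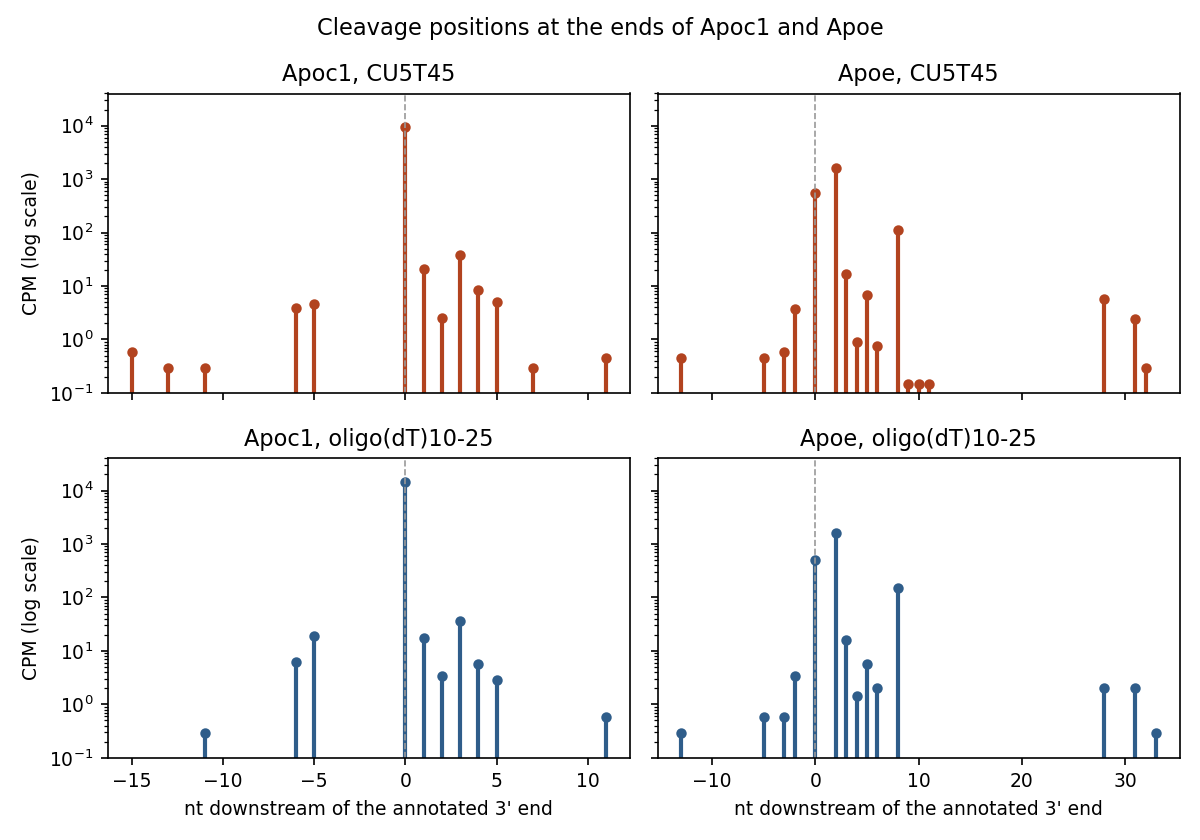
CPM of each library (log scale) at every position around the annotated 3' end of Apoc1 (left) and Apoe (right), with CU5T45 above and oligo(dT)10-25 below; the horizontal axis is the distance in nt downstream of the annotated end, dashed. Apoc1 has 1 tall position at 0, the last of 3 A in the annotated transcript, of 9320 CPM with CU5T45 and 14571 CPM with oligo(dT)10-25. Apoe has 3 leading positions at 0, 2 and 8 nt and a small group at 28 to 33 nt.

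**Figure D3:**
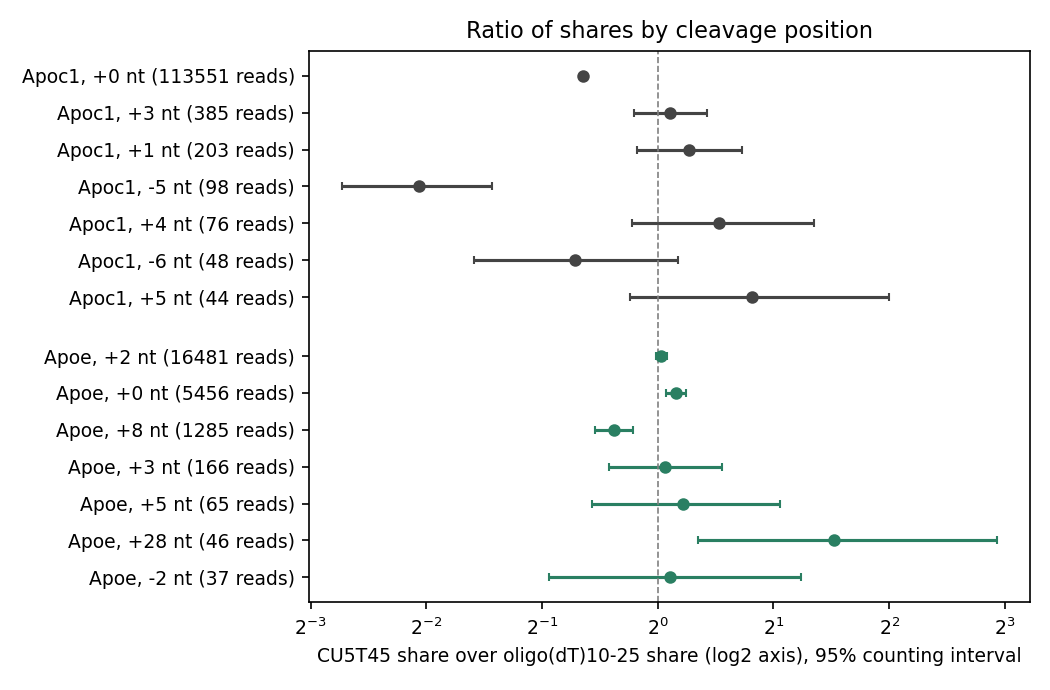
The CU5T45 share over the oligo(dT)10-25 share (log2 axis) at the 14 positions with 30 or more reads, named by nt downstream of the annotated end and by reads of both libraries; bars are 95% counting intervals and the dashed line marks equal shares. The leading Apoc1 base (0.640) and the Apoc1 base 5 nt upstream (0.239) lie left of the line, as does the Apoe base 8 nt downstream (0.770).

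GENCODE vM21 also lists a longer Apoe transcript that ends 163 nt further downstream. Within 10 nt of that end there were 0 reads in either library, and there were 0 over the 580 nt of the window that lie more than 40 nt downstream of the principal end. A floor of 3 reads would be 0.0189% of the gene's reads with CU5T45 and 0.0378% with oligo(dT)10-25. This is a set floor and not one of the 95% intervals. A polyadenylated end of that transcript was not detectable at this depth. It was looked for after the reads had been seen.

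Few reads fell inside the genes, and those that did lay in exons with 1 exception. More than 30 nt upstream of the annotated end Apoc1 had 70 reads with CU5T45 and 10 with oligo(dT)10-25. Of these, 70 of 70 with CU5T45 and 9 of 10 with oligo(dT)10-25 were inside exons of the principal Apoc1 transcript, which cover 12.7% of that stretch of 3149 nt, or 22.6% when every annotated Apoc1 model is counted. Exon 3 held 48 reads with CU5T45 and 5 with oligo(dT)10-25, and exon 4, the last exon, 22 with CU5T45 and 4 with oligo(dT)10-25. The single read outside them, in the oligo(dT)10-25 library, lay in intron 3.

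Apoe had 158 such reads with CU5T45 and 41 with oligo(dT)10-25, at 93 positions. All of them were inside exons of the principal Apoe transcript, which cover 39.9% of the 2750 nt searched, or 65.7% when every annotated Apoe model is counted. Exon 4, which holds most of the coding sequence, had 135 with CU5T45 and 35 with oligo(dT)10-25, and exon 2 had 14 with CU5T45 and 3 with oligo(dT)10-25. Exons 1 and 3 had 4 and 5 with CU5T45 and 0 and 3 with oligo(dT)10-25. The introns held 0 reads in both libraries.

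The internal reads were a larger share of each gene in the CU5T45 library. In Apoc1 they were 0.110% of the gene with CU5T45 and 0.0196% with oligo(dT)10-25, and their ratio of shares of the library was 3.62 (1.86 to 7.87). In Apoe they were 0.996% (0.847 to 1.16) with CU5T45 and 0.516% (0.371 to 0.700) with oligo(dT)10-25, a ratio of 1.99 (1.41 to 2.88). These reads were examined after their positions had been seen. Other abundant ends showed no clear common direction. Over the 200 to 3000 nt upstream of each of the 114 abundant clusters, 50.9% had a larger share with CU5T45. The rest include any cluster with no read there in either library. The median share was 0.0442% with CU5T45 and 0.0498% with oligo(dT)10-25. The stretch is set by distance and not limited to the gene's own exons, so it is a different measure from the internal reads above. By the ratio of these shares Apoc1 ranked 2 among the 92 clusters with any oligo(dT)10-25 read there. It had 0.0757% for CU5T45 and 0.0117% for oligo(dT)10-25, from only 48 reads with CU5T45 and 6 with oligo(dT)10-25. Apoe ranked 18, with 0.853% for CU5T45 and 0.456% for oligo(dT)10-25, from 134 reads with CU5T45 and 36 with oligo(dT)10-25. Any cluster with upstream reads in CU5T45 alone has no such ratio and was left out of the ranks.

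Internal reads formed small clusters. The Apoc1 internal reads of exon 4 were joined to the main cluster, which reaches 143 nt upstream of the most used position. The main Apoe cluster likewise took in the internal reads nearest its end. The only separate cluster in Apoc1 with 3 or more reads, chr7:20277242-20277321 in exon 3, had 14 positions. It held 48 reads in CU5T45 and 5 in oligo(dT)10-25, a ratio of 4.96 (1.99 to 16.0). The largest in Apoe, chr7:20282334-20282444 in exon 4, had 32 positions with 83 reads in CU5T45 and 30 in oligo(dT)10-25, a ratio of 1.43 (0.932 to 2.25) whose interval includes 1. Its neighbour, chr7:20282234-20282296, had 14 reads in CU5T45 and 0 in oligo(dT)10-25. With the 0 set to a floor of 3 reads its ratio was 2.41, and the counting interval against 0 reads started lower, at 1.71. chr7:20281765-20281832 had 18 reads in CU5T45 and 3 in oligo(dT)10-25, and chr7:20283559-20283593, in exon 2, had 14 in CU5T45 and 3 in oligo(dT)10-25, both with intervals that include 1. The other 5 Apoe clusters had 3 or 4 reads in CU5T45 and 0 to 3 in oligo(dT)10-25.

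The internal Apoe position with most reads is shown for the run of A at which it lies, though most internal positions do not close such a run. It is chr7:20282407, 787 nt upstream of the end, with 13 reads in CU5T45 and 8 in oligo(dT)10-25, at the close of a run of 5 A, in capitals.
Apoe strongest internal position: gaagtaaaggcttacAAAAAggagctggag

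No AATAAA or ATTAAA stands in these 30 bases. They begin too close to the position to hold a whole signal 18 nt from it, as at Apoc1, or 15 nt, as at the most used Apoe position. Whether a signal lies further upstream was therefore not tested. Of the internal positions, 54 of 93 in Apoe and 20 of 30 in Apoc1 lay on an A, and 0 of them were followed by one. Those on the second or a later A of a run were 27 of 93 in Apoe and 10 of 30 in Apoc1. Counted by reads of both libraries, 153 of 199 in Apoe (76.9%) and 66 of 79 in Apoc1 (83.5%) lay on an A. Recording at the last A of a run by itself raises these shares. Whether such reads come from polyadenylated ends or from capture at internal A was not tested.

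**Figure D4:**
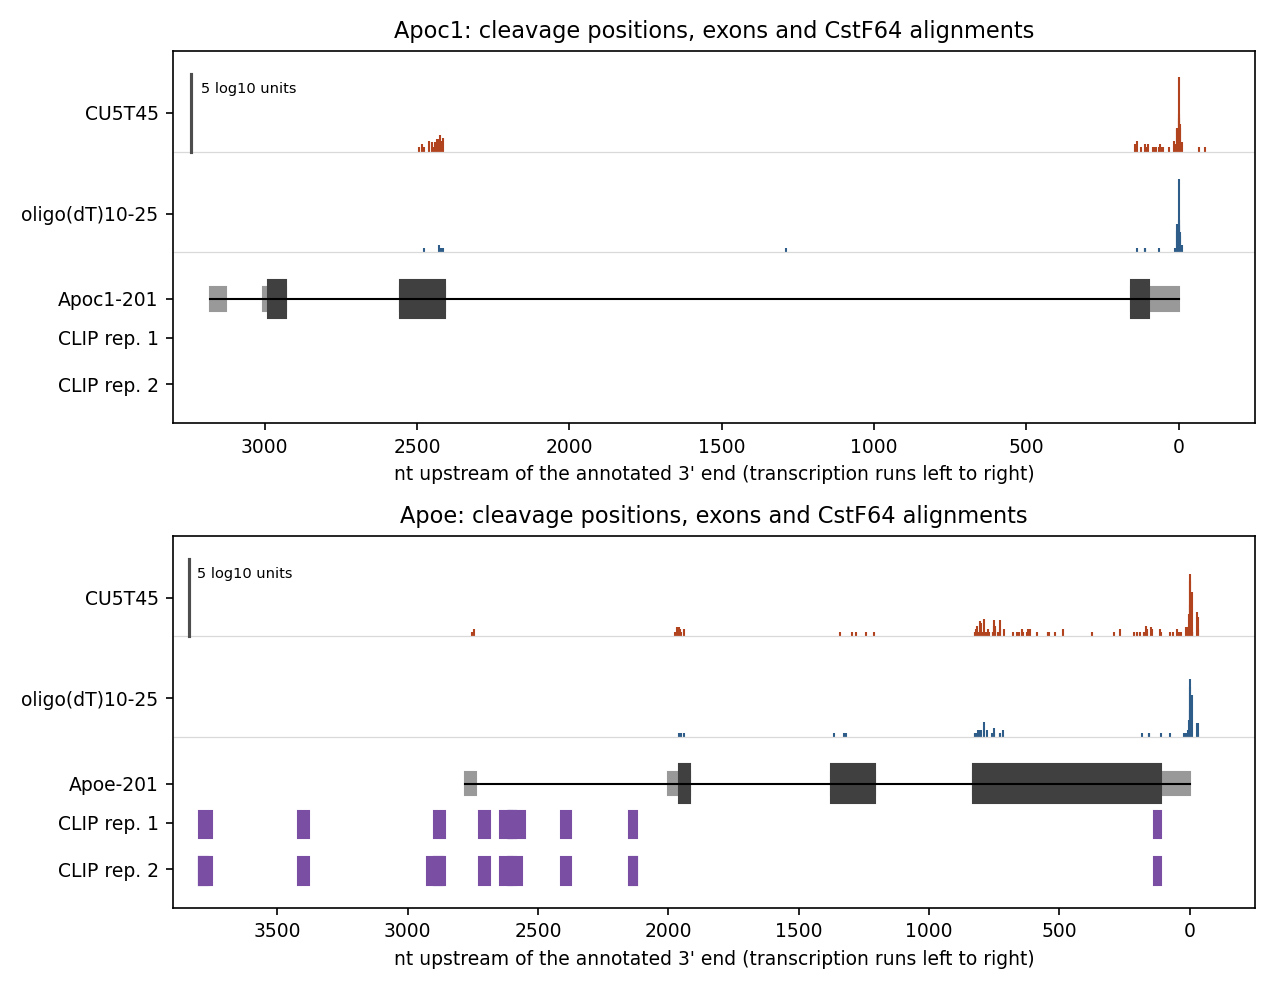
Reads at each position on a log10 scale (CU5T45 above oligo(dT)10-25), the exons of the principal transcript of each gene (boxes, coding parts tall and dark) and the CstF64 CLIP alignments of both replicates, by nt upstream of the annotated 3' end, with transcription from left to right. Internal reads stand over exons, denser with CU5T45, and CLIP alignments in Apoe lie mostly in intron 1 and upstream of the model, with 0 in Apoc1.

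No CstF64 alignment was centred within 100 nt of either end in C2C12 cells, and whether those cells express the genes was not analysed here. Apoc1 had 0 alignments in replicate 1 and 0 in replicate 2, which allows up to 3.69 in each. Stretches of the same size within 100 kb on the minus strand had a median of 1 in each replicate, with a mean of 3.77 in replicate 1 and 5.06 in replicate 2.

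Apoe had 11 alignments (5.49 to 19.7) in replicate 1 and 15 (8.40 to 24.7) in replicate 2. Of 44 stretches of its size nearby, 7 in replicate 1 and 8 in replicate 2 had as many, so the count was not extreme for the region. The alignments were not at the 3' end. The nearest, the same alignment in both replicates, lay 123 nt from the most used position, in exon 4. Of 18 distinct alignments in either replicate, 8 were identical in both, so the replicates are not treated as independent. Intron 1 held 7 in each replicate, and 3 in replicate 1 and 7 in replicate 2 lay upstream of the principal transcript. Exons of other annotated Apoe models overlapped 2 of the 7 intron 1 alignments in replicate 1 and 3 of the 7 in replicate 2, and 1 of the 3 upstream ones in replicate 1 and 3 of the 7 in replicate 2. The plus strand held 0 in both windows.

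Absence of CLIP signal was common at abundant ends. Of the 114 abundant clusters, 58.8% had no alignment centred within 100 nt in either replicate, and both genes were among them.

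Neighbouring ends on the minus strand moved in both directions. The cluster chr7:20256927-20256935, at the distance of the annotated Apoc2 end to within 5 nt, had 345 reads with CU5T45 and 300 with oligo(dT)10-25, a ratio of 0.594 (0.508 to 0.696), on the same side as Apoc1. An annotated transcript named Gm44805 shares that end. The cluster chr7:20263428-20263467, at the distance of the Apoc4 end to within 11 nt, had 840 reads with CU5T45 and 267 with oligo(dT)10-25, a ratio of 1.63 (1.42 to 1.87). The end at the Apoc2 distance was at 51.2 CPM with CU5T45 and 86.1 CPM with oligo(dT)10-25, and that at the Apoc4 distance at 125 CPM with CU5T45 and 76.7 CPM with oligo(dT)10-25. Both levels are far below those of Apoe and Apoc1. On the other side of the genes, chr7:20301991-20302031 had 60 reads with CU5T45 and 15 with oligo(dT)10-25, a ratio of 2.07 (1.16 to 3.92). The cluster chr7:20309505-20309509 had 65 with CU5T45 and 21 with oligo(dT)10-25, a ratio of 1.60 (0.965 to 2.76) whose interval includes 1. A small cluster at chr7:20286637-20286684, at the distance of the principal Tomm40 end to within 7 nt, had 3 reads with CU5T45 and 18 with oligo(dT)10-25 and was 11.6-fold lower (3.39 to 61.5) with CU5T45. It had fewer than the 30 reads asked of neighbours and is given after its values were seen. Tomm40 encodes the channel of the mitochondrial outer membrane translocase.

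The ends most like each gene were sought by distance in log2 CPM over the 2 libraries among 8406 nuclear clusters. For Apoe the nearest was chr17:24879678-24879730 on the plus strand, at a distance of 0.12, with 15233 reads in CU5T45 and 8535 in oligo(dT)10-25. The next were chr17:35611444-35611508 on the plus strand, at 0.22, and chr11:55207984-55208034 on the minus strand, at 0.23. Apoc1 had no cluster as close among the 8406. Its nearest, on the minus strand of the unplaced chromosome Un_random with its peak at 2674942, lay at 0.55 with 50956 reads in CU5T45 and 37468 in oligo(dT)10-25, and the next, chr5:90905502-90905675 on the plus strand and chr15:78021856-78022022 on the minus strand, at 0.64 and 0.81. With only 2 libraries this likeness is one of level and ratio alone.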

How the data were processed

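Per the labels' protocols, fragments of poly(A)-selected RNA were captured on beads, given adapters, amplified by PCR with no molecular identifiers described, and read from the 5' end. Bowtie, Novoalign and the mm9 build are named in the submitters' processing notes. The tools' roles, versions and read filters are not given in the sources used here. The authors deposited read counts per cleavage position and per distinct CLIP alignment, with no normalization stated.

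From these, positions of both libraries were joined into strand-specific clusters across gaps of up to 24 nt, and a cluster needed at least 3 reads. Shares have Clopper-Pearson intervals, ratios of shares exact conditional binomial intervals (single positions and the series-wide counts at 30 or more reads, named clusters and sums at fewer) and CLIP counts exact Poisson intervals, all at 95%. PCR copies are not independent molecules, so intervals and the floor of 3 reads (0.445 CPM with CU5T45, 0.861 CPM with oligo(dT)10-25) cover counting error only. CLIP alignments were placed by midpoint. The sources used here do not say if coordinates start at 0 or 1, which leaves 1 nt of doubt on a position.

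The members and lists were chosen with earlier results of these data known. Named were every cluster of 3 or more reads in the windows, the 5 leading positions of each gene, the 3 most like clusters and neighbours of 30 or more reads within 50 kb. Positions beyond these, internal reads, the base register, the Apoe group downstream, the longer transcript and the upstream stretches were added after seeing the data. The other lipoprotein genes were not analysed here, since no mm9 annotation was at hand. The interval of the ratio was tested on simulated independent counts, without PCR copies or variation between libraries. That checks the calculation and not whether the interval covers the error of these libraries. The software was scipy 1.17.1 for intervals, pandas 2.3.3, matplotlib 3.10.9 for figures and numpy 2.4.6, under Python 3.11.15.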

Additional observations from a re-analysis of the deposited data

How the results depend on the processing

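The lower Apoc1 ratio, 0.642, was 0.642 for the main cluster alone, 0.623 outside the mitochondrial genome, 0.594 over the median nuclear cluster and 0.644 with CU5T45 thinned to the depth of oligo(dT)10-25. It turned to 1.02 without the most used position and to 1.77 with each position counted once, a count that follows depth. The Apoe ratio, 1.03, was 1.00 outside the mitochondrial genome, 0.956 over the median nuclear cluster, 1.05 thinned and 1.73 with each position counted once, so its direction is not settled. The ratio of Apoc1 per Apoe read, 0.622, was 0.965 without the most used positions and 1.02 with each position counted once.

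Joining positions within 2 nt gave 99.2% for Apoc1 and 93.2% for Apoe with CU5T45, because the Apoe end holds more than 1 strong base, and within its main cluster the Apoc1 position held 99.1%. The share outside the main cluster with CU5T45 was 0.113% for Apoc1 and 1.36% for Apoe at a gap of 10 nt, and 36.4% and 76.8% with each position counted once. Internal reads kept ratios above 1: 3.45 and 5.63 for Apoc1 and 1.96 and 1.93 for Apoe, beyond 100 nt and per read of the gene. CLIP alignments at Apoe were 11 to 15 leaving out either replicate, and 0 at Apoc1. The replicates shared identical alignments at Apoe, so this is not an independent check. No paired analysis was possible because each oligo had 1 library. Counts under about 20 reads limit what the internal clusters can show.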
